A study of Rattus norvegicus with 8 samples.

Results

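The pyruvate dehydrogenase group examined here holds 10 genes of the table's 32258 features, chosen by name: the kinases Pdk1, Pdk2, Pdk3 and Pdk4, the phosphatases Pdp1 and Pdp2, the complex subunits Pdhb and Dlat, and the mitochondrial pyruvate carrier genes Mpc1 and Mpc2. All 10 were found, and 9 passed the filter on low counts. Pdk4 did not pass. RNA was sequenced from H9C2 cells, a cell line derived from rat embryonic heart, in 4 groups of 2 libraries. In all groups the cells carried a pDC316 construct expressing YFP for 2 days. The construct held YFP joined to PPARalpha with serine 280 changed to the phospho-mimicking aspartate (S280D), YFP joined to PPARalpha with serine 280 changed to the phospho-resistant alanine (S280A), YFP joined to wild-type PPARalpha (WT), or YFP alone (YFP). The 3 PPARalpha groups therefore carried transduced receptor on top of the line's own, and all 4 groups come from 1 cell line. The labels do not state whether the 2 libraries of a group are separate cultures. The p-values therefore reflect only how far these libraries spread, which may be technical.

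The pyruvate dehydrogenase complex turns pyruvate, carried into mitochondria by the Mpc1 and Mpc2 proteins, into acetyl-CoA. Pyruvate dehydrogenase kinases phosphorylate the complex and switch it off, and the phosphatases Pdp1 and Pdp2 remove the phosphate and switch it on. PPARalpha is a nuclear receptor that binds DNA together with RXR at paired AGGTCA sites separated by 1 base, called DR1 elements, and Pdk4 is one of its best-known target genes in heart and muscle.

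Libraries held 14018785 to 39526013 exon reads, with the S280D libraries the deepest. Ppara itself stood at 17911 and 17693 CPM, counts scaled to library size, in S280D libraries, 17400 and 13736 CPM in S280A libraries, 12382 and 24134 CPM in WT libraries, and 74.4 and 59.5 CPM in YFP libraries. All 6 PPARalpha libraries lay far above both YFP libraries. A gene's deviation from its mean log2 CPM over the 8 libraries rose with exon length in the S280D and WT libraries (Spearman's rho across 12407 genes, which are not independent replicates, 0.129 to 0.238) and fell with it in the S280A and YFP libraries (-0.247 to -0.0648). In the file headers the 2 WT libraries belong to lane 2 and the 2 YFP libraries to lane 1, so lane and group cannot be told apart between those 2 groups, while S280A and S280D have 1 library in each lane. The cardiac markers Tnnt2 and Gata4 were present, with Tnnt2 at 129 to 265 CPM, whereas Myh6, Myh7, Nkx2-5 and Nppa were near 0, below 1 CPM in every library. Skeletal myoblast markers summed to at most 2.05 CPM, and endothelial markers to at most 0.234 CPM. The 5 fibroblast markers, of which 4 were tested, summed to 59006 to 60533 CPM in S280D and 72114 to 79332 CPM in S280A. Their sums were 59108 to 64734 CPM in WT and 67761 to 70504 CPM in YFP. Most of this came from Col1a1 (18968 to 34547 CPM) and Fn1 (29164 to 39818 CPM), while Pdgfra was at most 0.562 CPM. Of the 4 fibroblast markers tested, by the edgeR test described with the results, 2 rose in S280A against WT (Col1a1, Thy1). In S280D against S280A 2 fell (Col1a1, Thy1), in WT against YFP 2 (Col1a1, Col3a1) and in S280D against YFP 1 (Col1a1). Of the 4 cardiac markers tested, Tnnt2 rose in S280A against WT and fell in WT against YFP, and Actc1 fell in S280D against S280A. Actc1 had only 7 to 26 exon reads in a library, and Tnni3, also tested, 3 to 22. Of all 12407 genes, 10.1% were called higher in S280A against WT. Called lower were 18.0% in S280D against S280A, 7.45% in WT against YFP and 13.7% in S280D against YFP. The part of these markers in the results was not tested.

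The 10 genes differed widely in level when read per exon length, as TMM-scaled RPKM, reads per kilobase of exon scaled to library size. Mpc2 had the highest mean over the 8 libraries at 45.9, followed by Dlat at 14.5, Pdhb at 13.1, Pdk3 at 10.6, Mpc1 at 9.62, Pdk2 at 4.9, Pdp1 at 4.86, Pdk1 at 4.06, Pdp2 at 3.58 and Pdk4 at 0.0464. The ranges of neighbours in this order overlapped except between Mpc2 and Dlat, between Mpc1 and Pdk2, and between Pdp2 and Pdk4. Pdk3 was thus the most abundant kinase mRNA in these cells, above Pdk1 and Pdk2 in every library, and Pdk4 the least. The order of the 10 genes depends on annotated exon lengths, which ran from 384 bases for Mpc2 to 2772 for Pdp1. In CPM, without length, the mean of Mpc2 lay below those of Dlat and Pdhb in every group.

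**Figure D1:**
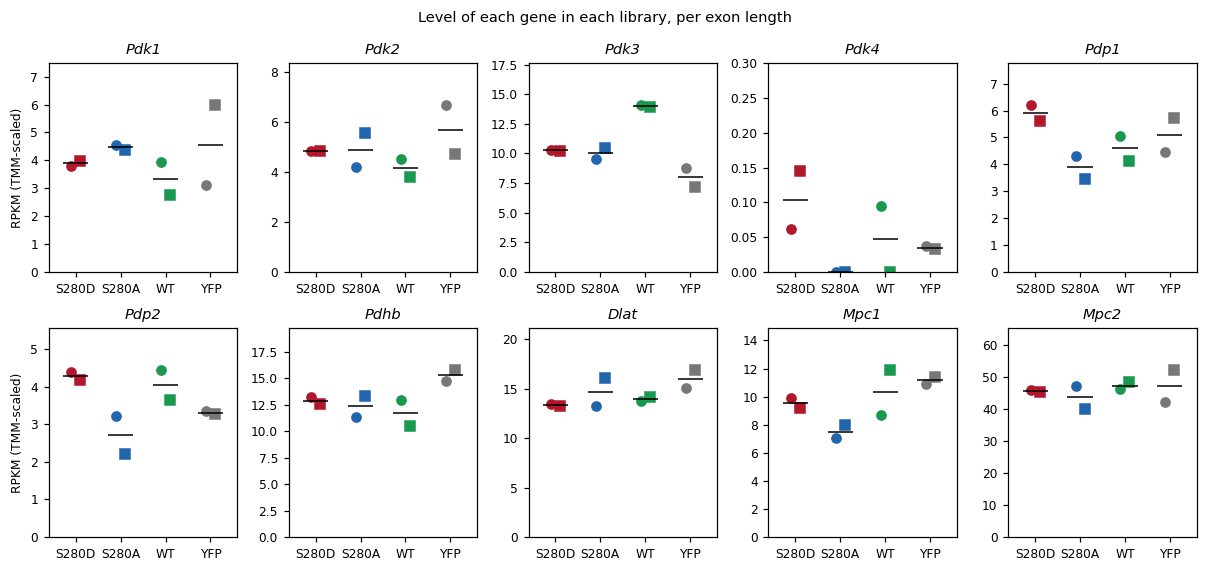
Level of each of the 10 genes in each library, as TMM-scaled RPKM, with circles for replicate 1, squares for replicate 2 and a line at the group mean. Pdk3 separates the WT libraries, at 14.1 and 13.9, from all others, whose highest value is 10.5, while Pdk4 stays below 0.15 in every library.

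Differences were tested with edgeR's quasi-likelihood test on exon reads, with Benjamini-Hochberg adjustment over 12407 genes and a threshold of 0.05. Of the 9 genes tested, 2 rose in S280D against S280A (Pdp1 and Pdp2), where 39.3% of all genes were called in either direction, 21.3% as higher and 18.0% as lower. Pdk3 alone rose in WT against YFP, where 19.6% of all genes were called (12.2% as higher, 7.45% as lower), and Pdk3 alone fell in S280A against WT, where 26.0% were (10.1% as higher, 15.9% as lower). None passed in S280D against YFP, where 30.7% of all genes were called (17.1% as higher, 13.7% as lower), in S280A against YFP or in S280D against WT, where 0.0403% were called in each. At an unadjusted edgeR p under 0.05 the 9 genes numbered 1 in each of these last 3 comparisons, where 5359, 1439 and 606 of all 12407 genes were under it, and none passed with DESeq2 in them. The median log2 fold change of the 9 was -0.22 in S280D against YFP and -0.22 in S280A against YFP, against -0.02 over all genes in each, and -0.15 in WT against YFP, against -0.01. It was 0.08 in S280D against WT, -0.12 in S280A against WT and 0.06 in S280D against S280A, with 0.0, 0.01 and -0.01 over all genes. The 6 comparisons share libraries, so these values are not separate lines of evidence.

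Pdk3 was the one kinase whose level passed the test. In these bulk libraries fewer cells with an mRNA and less of it per cell cannot be told apart. Pdk3 (chrX:62836130-62903554, Rnor_6.0) stood at 10.3 and 10.2 RPKM in S280D libraries, 9.53 and 10.5 in S280A libraries, 14.1 and 13.9 in WT libraries, and 8.81 and 7.18 in YFP. The WT libraries lay above all others, the S280D and S280A libraries lay between WT and YFP, and the S280D and S280A ranges overlapped. In WT against YFP, Pdk3 rose by 0.81 ± 0.15 on the log2 scale (SE, n = 2 libraries each; edgeR adjusted p = 0.00729). Its mean level was 14.0 ± 0.145 in WT and 8.0 ± 1.15 in YFP (SD, n = 2 each). In the same comparison the cardiac marker Tnnt2 fell by 0.57 ± 0.18 (edgeR adjusted p = 0.0488) and the fibroblast marker Col1a1 by 0.62 ± 0.15 (edgeR adjusted p = 0.0199). The markers did not all go 1 way. Of the 4 tested in each list, 1 cardiac (Tnni3, 1.83 ± 0.63) and 2 fibroblast markers (Fn1, 0.24, and Thy1, 0.13) had positive log2 fold changes. Tnni3 was not called (edgeR adjusted p = 0.0629) and had only 22 and 11 exon reads in WT libraries and 4 and 5 in YFP. The authors' deposited table gives for Pdk3 a fold of 1.75 and an adjusted p of 0.000496 in WT against YFP. In S280A against WT, Pdk3 fell by 0.48 ± 0.15 on the log2 scale (edgeR adjusted p = 0.0393, n = 2 each), and in the authors' deposited table this comparison has an adjusted p of 0.0872. Here Tnnt2 rose by 0.55 ± 0.18 (edgeR adjusted p = 0.0485) and Col1a1 by 0.60 ± 0.15 (edgeR adjusted p = 0.0191). Tnni3 had a negative value without a call (-1.24 ± 0.63, edgeR adjusted p = 0.161), with 7 and 3 exon reads in S280A libraries. All 4 tested fibroblast markers had positive log2 fold changes.

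Pdk3 in S280D against WT had a log2 fold change of -0.45 ± 0.15, nearly that of S280A against WT, with an unadjusted edgeR p of 0.0113 and an adjusted p of 0.843. The adjustment depends on how many genes have small p-values, and 5 genes were called in S280D against WT and 3226 in S280A against WT. Against YFP, Pdk3 had a log2 fold change of 0.36 in S280D (edgeR adjusted p = 0.0894) and of 0.33 in S280A (edgeR adjusted p = 0.44), and these comparisons share the YFP libraries. The direct log2 fold change in S280D against S280A was 0.03 (edgeR adjusted p = 0.881), which does not show that the 2 mutants act alike on this gene.

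The Pdk3 call in WT against YFP was lost with lane as a covariate (log2 0.89, edgeR adjusted p = 0.129), where lane rests on the other 2 groups, and without WT replicate 1 (edgeR adjusted p = 0.0795). The Pdk3 call in S280A against WT was lost with lane as a covariate (log2 -0.52, edgeR adjusted p = 0.104) and without any 1 of WT replicate 1, WT replicate 2, S280A replicate 1 or S280A replicate 2 (edgeR adjusted p = 0.201, 0.145, 0.116 and 0.148). It was also lost without S280D replicate 1 or 2, which are not in the comparison but share its estimate of spread (edgeR adjusted p = 0.0565 and 0.0593), and with an offset for exon length (edgeR adjusted p = 0.0712). Within lane 2 the S280A library lay 0.55 below the 2 WT libraries on the log2 scale and the S280D library 0.46 below them. Within lane 1 the S280A library lay 0.4 above the 2 YFP libraries and the S280D library 0.37 above them.

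Pdk1 and Pdk2 passed the test in none of the 6 comparisons. Pdk1 had 3.81 and 3.98 RPKM in S280D libraries, 4.54 and 4.39 in S280A libraries, 3.93 and 2.76 in WT libraries, and 3.12 and 5.99 in YFP. Pdk2 had 4.86 and 4.84 in S280D, 4.19 and 5.59 in S280A libraries, 4.53 and 3.80 in WT libraries, and 6.70 and 4.72 in YFP. For both genes the widest spread between replicates was in YFP, and their log2 fold change in WT against YFP was -0.45 for each.

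Pdk4, the kinase usually named as a PPARalpha target, had at most 5 exon reads in a library. It had 4 and 5 exon reads in S280D libraries, none in either S280A library, 3 and 0 in WT, and 1 and 1 in YFP, 14 reads in all. In CPM over the exon reads of the group this is 0.149 in S280D (exact 95% Poisson interval 0.0679 to 0.282), 0.0835 in WT (0.0172 to 0.244) and 0.0551 in YFP (0.00667 to 0.199), and 0 in S280A (0 to 0.128), where 3 reads would be 0.104. The intervals overlap, they cover counting error only, and no test or fold change is given for the gene. Of 26 other PPAR targets listed and found by name, 20 passed the filter on low counts. The rest, Fabp3 and Cd36 among them, did not pass. Of those that passed, the one with the smallest edgeR adjusted p in S280D against YFP is given here. Angptl4, a secreted lipase inhibitor, stood at 19 and 18.3 CPM in S280D, 7.72 and 4.91 CPM in S280A libraries, 7.60 and 9.65 CPM in WT libraries, and 3.34 and 1.99 CPM in YFP, and rose by 2.81 ± 0.28 on the log2 scale in S280D against YFP (edgeR adjusted p = 0.000702, n = 2 each).

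The 250 bases before the RefSeq start of Pdk3 and of Pdk4 are shown because the first gene carries the kinase result and the second is the known target with at most 5 reads in a library. Both are read from RefSeq promoters of GRCr8, a later build than that of the table, and capitals mark the 13 bases closest to the DR1 element (AGGTCA, any base, AGGTCA) on either strand.
Pdk3, chrX:62547372-62547621, minus strand: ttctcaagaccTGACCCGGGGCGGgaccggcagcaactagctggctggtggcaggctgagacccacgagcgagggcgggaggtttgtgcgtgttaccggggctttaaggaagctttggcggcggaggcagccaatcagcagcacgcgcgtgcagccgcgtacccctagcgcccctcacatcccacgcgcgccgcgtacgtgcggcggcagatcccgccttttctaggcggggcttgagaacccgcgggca
Pdk4, chr4:34568330-34568579, minus strand: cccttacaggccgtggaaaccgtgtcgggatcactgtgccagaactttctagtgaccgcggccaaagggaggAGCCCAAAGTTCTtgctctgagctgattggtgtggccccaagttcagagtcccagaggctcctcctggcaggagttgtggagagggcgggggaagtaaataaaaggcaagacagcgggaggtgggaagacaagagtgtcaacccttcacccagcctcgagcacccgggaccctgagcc
The closest stretch differs from the motif at 5 letters in Pdk3 and at 4 in Pdk4. Over 300-base windows, 250 before to 50 after the start, promoters of 8 of the 10 genes were in the table, and none held the motif with at most 2 mismatches, against 3.77% of 33469 promoters. With up to 3 mismatches 1 of the 8 (Pdhb) matched, against 24.9% of all promoters. With up to 4 mismatches 6 of the 8 matched, against 80.3%, and with up to 5 all 8, against 99.9%. Most promoters thus hold a stretch at least as close to the motif as those marked. The single site AGGTCA, which is part of that motif, was in 2 of the 8, Pdhb and Dlat, against 16.2% of all. These counts describe the letters in these windows only.

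The phosphatases Pdp1 and Pdp2 both rose in S280D against S280A. Pdp1 (chr5:25577450-25584288, Rnor_6.0) stood at 6.21 and 5.60 RPKM in S280D libraries, 4.31 and 3.46 in S280A libraries, 5.07 and 4.11 in WT libraries, and 4.44 and 5.73 in YFP. Its log2 fold change in S280D against S280A was 0.60 ± 0.20 (edgeR adjusted p = 0.0326, n = 2 each). Pdp2 (chr19:597426-601469, Rnor_6.0) stood at 4.39 and 4.17 in S280D, 3.22 and 2.21 in S280A libraries, 4.44 and 3.63 in WT libraries, and 3.35 and 3.26 in YFP, with a log2 fold change of 0.65 ± 0.22 in S280D against S280A (edgeR adjusted p = 0.037). For both genes the S280D libraries lay above both S280A libraries, and S280A replicate 2 was the lowest of all 8. For Pdp1 the WT libraries overlapped those of S280A and the YFP libraries those of S280D, while for Pdp2 the WT libraries overlapped those of S280D and the YFP libraries lay between S280D and S280A. In the same comparison the fibroblast markers Col1a1 and Thy1 fell by 0.47 ± 0.15 and 0.51 ± 0.16 on the log2 scale (edgeR adjusted p = 0.0314 and 0.0241). The other tested fibroblast markers were not called, with Fn1 at -0.30 ± 0.13 and Col3a1 at 0.06 ± 0.15. The authors' deposited table gives adjusted p of 0.0487 for Pdp1 and 0.0528 for Pdp2.

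Neither phosphatase passed the test against YFP. For Pdp1 the log2 fold change was 0.22 in S280D and -0.39 in S280A, and for Pdp2 it was 0.38 in S280D and -0.28 in S280A. Both calls were lost without S280A replicate 2 (Pdp1 0.44, edgeR adjusted p = 0.211; Pdp2 0.40, 0.266) and without either S280D library (Pdp1 edgeR adjusted p = 0.173 and 0.0617 without replicates 1 and 2; Pdp2 0.166 and 0.0848). Pdp1 was also lost with lane as a covariate (edgeR adjusted p = 0.0531) and with an offset for exon length (log2 0.46, edgeR adjusted p = 0.0631). Pdp2 was also lost with DESeq2 (adjusted p = 0.0518), in a fit to the 4 libraries compared (edgeR adjusted p = 0.0543) and without WT replicate 1 or 2 (edgeR adjusted p = 0.052 and 0.0533). Within lanes, S280D against S280A gave Pdp1 log2 ratios of 0.85 in lane 1 and 0.38 in lane 2, and Pdp2 ratios of 0.99 and 0.37, 1 library each.

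**Figure D2:**
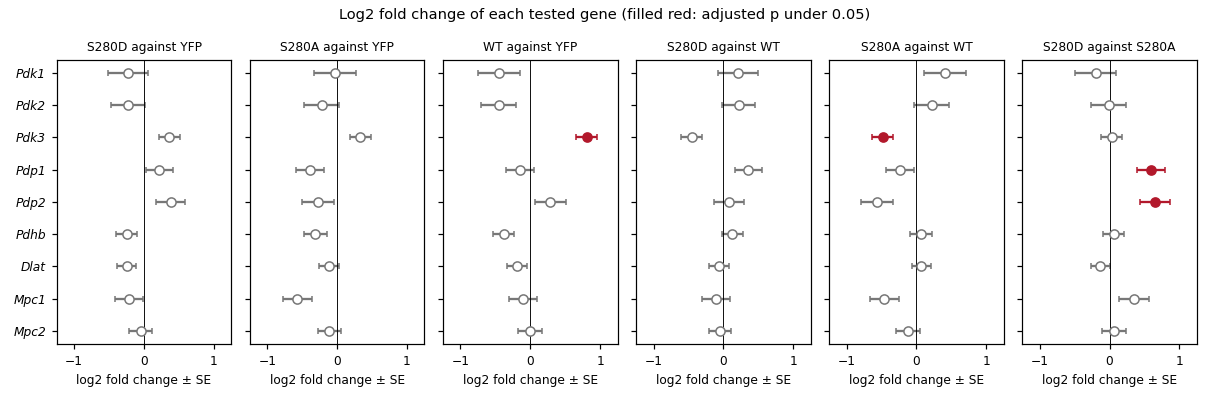
Log2 fold change with its standard error for the 9 tested genes in the 6 comparisons, with filled red points for those past the threshold. Pdk3 is past it in WT against YFP (0.81) and in S280A against WT (-0.48), and Pdp1 (0.60) and Pdp2 (0.65) are past it in S280D against S280A.

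The share of Pdk3 in the summed kinase level was 54.1% and 53.3% in S280D libraries, 52.2% and 51.4% in S280A libraries, 62.2% and 68.0% in WT libraries, and 47.2% and 40.1% in YFP. The summed kinase level moved less, with group means in RPKM of 19.1 in S280D, 19.4 in S280A, 21.6 in WT and 18.3 in YFP. The ratio of summed kinase to summed phosphatase level was 1.80 and 1.96 in S280D, 2.43 and 3.62 in S280A libraries, 2.38 and 2.64 in WT libraries, and 2.40 and 1.99 in YFP. The S280D libraries had the 2 lowest ratios and S280A replicate 2 the highest. These ratios are descriptions with no test. Annotated exon lengths were 2772 bases for Pdp1 and 2116 for Pdp2, against 2247 for Pdk3, 1579 for Pdk1 and 1224 for Pdk2. Length trends differed between the libraries (above), with Spearman's rho of 0.238 and 0.211 in S280D and -0.14 and -0.232 in S280A. The part of these trends in the shares and ratios was not tested.

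**Figure D3:**
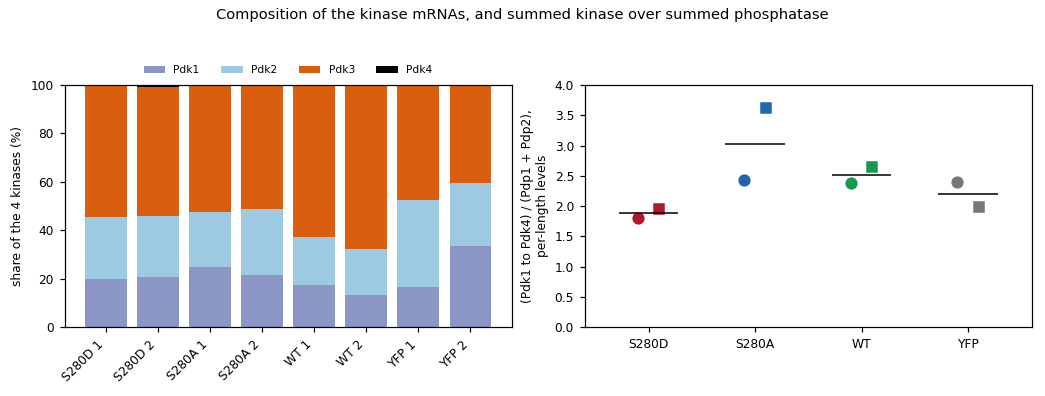
Left, the share of each kinase in the summed level of the 4 kinases (%) per library. Right, summed kinase over summed phosphatase level, with circles for replicate 1, squares for replicate 2 and a line at the mean. Pdk3 has the largest share in WT (62.2% and 68.0%) and S280D the lowest ratios (1.80 and 1.96). The part of exon length trends in either panel was not tested.

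The subunit genes Pdhb and Dlat showed no call. Pdhb, the beta subunit of the E1 enzyme, had means of 12.9 ± 0.432 RPKM in S280D, 12.4 ± 1.3 in S280A, 11.8 ± 1.71 in WT and 15.3 ± 0.723 in YFP (SD, n = 2 each). All 6 PPARalpha libraries lay below both YFP libraries, with log2 fold changes against YFP of -0.25 in S280D, -0.31 in S280A and -0.38 in WT. Dlat, the E2 acetyltransferase, had means of 13.4 ± 0.124 in S280D, 14.7 ± 1.95 in S280A, 14.0 ± 0.3 in WT and 16.0 ± 1.24 in YFP. Of its reads 60.7% to 72.4% were unique, so its values are uncertain where reads could belong to a near-identical copy.

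The carrier genes showed no call either. Mpc1 had means of 9.53 ± 0.517 in S280D, 7.5 ± 0.665 in S280A, 10.3 ± 2.28 in WT and 11.1 ± 0.361 in YFP, and the S280A libraries were the lowest 2 of the 8. Its log2 fold change in S280A against YFP was -0.57 ± 0.21 (edgeR adjusted p = 0.383). Mpc2 had means of 45.6 ± 0.555 in S280D, 43.6 ± 5.04 in S280A, 47.3 ± 1.37 in WT and 47.2 ± 7.01 in YFP.

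Intron reads were tested for the 6 genes that passed the filter on them (Pdk1, Pdk3, Pdhb, Dlat, Mpc1 and Mpc2), and edgeR called 0 of them in each comparison, where 4.54% of 12988 genes were called in S280D against S280A, 5.35% in S280D against YFP, 2.02% in WT against YFP, 0.0154% in S280A against YFP, 0.0077% in S280A against WT and 0% in S280D against WT. At an unadjusted p under 0.05 there was 1 of the 6, Mpc2 in S280D against S280A, where 2884 of the 12988 genes were under it (log2 1.10 ± 0.44, edgeR adjusted p = 0.162). Pdk3 intron reads gave log2 0.36 ± 0.37 in WT against YFP and -0.13 ± 0.37 in S280A against WT, with 16 to 73 reads per library.

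Of the other complex and regulator genes, 10 of 11 listed were found by name, all but Pdha1, and 9 were tested. Nothing can thus be said here of Pdha1. In S280D against S280A 2 rose (Dld, Ppm1k) and 1 fell (Bckdk), where 39.3% of all genes were called. Dld, the E3 dihydrolipoamide dehydrogenase, stood at 314 and 242 CPM in S280D libraries, 175 and 134 in S280A libraries, 269 and 214 in WT libraries, and 122 and 155 in YFP. Dld rose by 1.00 ± 0.18 on the log2 scale in S280D against YFP (edgeR adjusted p = 0.00358), by 0.80 ± 0.18 in WT against YFP (edgeR adjusted p = 0.0153) and by 0.85 ± 0.18 in S280D against S280A (edgeR adjusted p = 0.00595), and fell by 0.64 ± 0.18 in S280A against WT (edgeR adjusted p = 0.0279). Pdha1l1, annotated as an E1 alpha-like gene, fell by 0.92 ± 0.23 in WT against YFP (edgeR adjusted p = 0.022). Bckdk, the kinase of the branched-chain ketoacid dehydrogenase, fell by 0.61 ± 0.15 in S280D against S280A (edgeR adjusted p = 0.00979), while Ppm1k, its phosphatase, rose by 1.28 ± 0.32 (edgeR adjusted p = 0.0113).

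Of the pyruvate and lactate genes, 24 of 25 listed were found by name, all but Pkm, and 21 were tested. In S280D against S280A 8 fell and none rose, and in S280A against WT 7 rose and none fell, where 18.0% of all genes were called lower in the first comparison and 10.1% higher in the second. Those that fell in S280D against S280A included Bsg, a chaperone of lactate transporters (log2 -0.73 ± 0.15, edgeR adjusted p = 0.00507), the citrate carrier Slc25a1 (-0.57 ± 0.15, 0.0123) and hexokinase Hk1 (-0.50 ± 0.13, 0.0129). Of the known regulators of the kinase genes, 13 of 14 listed were found by name, all but Nr3c1, and 9 were tested. In S280D against S280A 1 of these rose and 4 fell, where 21.3% of all genes were called higher and 18.0% lower. Hif1a, the hypoxia factor known to induce Pdk1, rose by 1.00 ± 0.18 (edgeR adjusted p = 0.00314), and Rxra, the partner of PPARalpha, fell by 0.73 ± 0.14 (edgeR adjusted p = 0.00333), with the lipid synthesis factor Srebf1 at -0.53 ± 0.13 (0.00982) and the nuclear receptor Esrra at -0.49 ± 0.13 (0.0133). Hif1a also rose in WT against YFP (0.66 ± 0.18, edgeR adjusted p = 0.0299) and fell in S280A against WT (-0.88 ± 0.19, 0.0108). Rxra and Srebf1 were called the opposite way in both. Pdk1, not called, had log2 fold changes of -0.20 in S280D against S280A, -0.45 in WT against YFP and 0.41 in S280A against WT. A link between these genes was not tested. Of the PPAR targets, 26 of 27 listed were found by name, all but Acot1, and 20 were tested. In WT against YFP 4 rose and none fell, where 12.2% of all genes were called higher and 7.45% lower. In S280A against YFP edgeR called none, where 0.0403% of all genes were called. At an unadjusted edgeR p under 0.05 there were 7 of the 20, where 1439 of all 12407 genes were under it. In S280D against YFP 7 rose and 2 fell, where 17.1% of all genes were called higher and 13.7% lower, and those that rose included Angptl4, Hsdl2 (log2 1.20 ± 0.17) and Acot2 (0.71 ± 0.13). Exon length trends ran opposite ways in the S280D and S280A libraries (above), and their part in these counts was not tested.

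The genes whose log2 CPM ran most like that of Pdk3 over the 8 libraries were Ccl2 (Pearson's r 0.991), Tnfaip3 (0.971) and Abcb1a (0.96). For Pdp1 they were Ddhd2 (0.989), Cox7c (0.982) and Mblac2 (0.971), and for Pdp2 Srbd1 (0.991) and Myh11 (0.986). These are among the highest of 10796 genes compared, as a description over libraries that share depth and length trends. Ccl2 ran from 0.102 to 3.75 CPM and Mblac2 from 0.322 to 3.12 CPM, so their correlations rest on low counts.

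**Figure D4:**
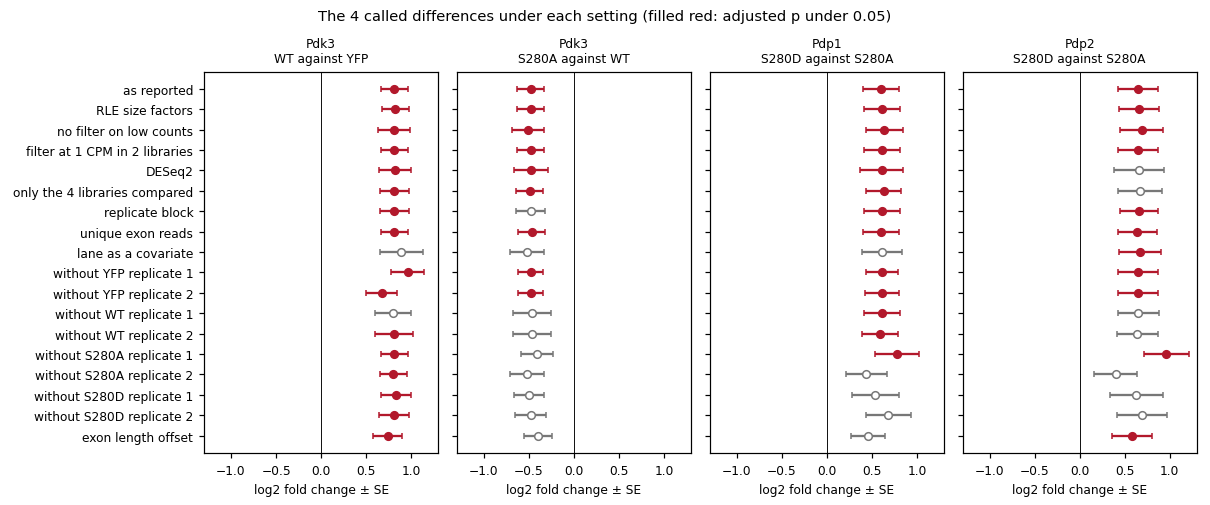
Log2 fold change with its standard error for the 4 called differences under each setting, with filled red points for adjusted p under 0.05. All points keep the sign of the value as reported, and Pdk3 in WT against YFP is past the threshold in all but 2 settings.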

How the data were processed

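Poly(A) RNA of H9C2 cells was sequenced as strand-specific paired-end libraries, amplified for 15 PCR cycles (per the labels' protocols). The deposited table holds the authors' raw total exon, unique exon, intron and junction read counts of each library, with no normalization, per the file headers, on the Rnor_6.0 build named in the submitters' processing notes. The aligner, the annotation and the strand setting were not given in the sources used here. Adjusted p-values and signed fold changes (a score here) are the authors' own, copied from the same deposited table per the file headers. Lanes 1 and 2 are those in the file headers. The WT library titled 2 carries the number 3 in its description. It is replicate 2 here.

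Exon counts were filtered with filterByExpr, scaled by TMM and tested with edgeR 4.0.16 in R 4.3.3, using 1 coefficient per group over the 8 libraries and 4 residual degrees of freedom. Each comparison was two-sided and adjusted over all 12407 genes. Alternatives were DESeq2 1.42.0, other filters and scalings, unique reads, lane, a replicate block, leaving out each library and, chosen after seeing the data, an offset for exon length. The smallest library held 14018785 exon reads. No molecular identifiers are named in the labels, so reads need not be independent molecules and intervals cover counting error only. The members and lists were chosen with earlier results of these data known. Named genes are all 10 members, Ppara, up to 4 genes per list with the smallest adjusted p among those called, and the 3 genes with the highest correlation to each called member. Some genes that this rule names are not reported here. Every pair of libraries differed by more than sampling noise. The fit was tested on simulated data.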

Additional observations from a re-analysis of the deposited data

Results flagged for a closer look

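Pdk3 differed between the effects of S280A and WT over the same YFP libraries. The test of the difference itself, S280A against WT, gave a log2 fold change of -0.48 ± 0.15 (edgeR adjusted p = 0.0393, n = 2 each). This call was lost with lane as a covariate and with the exon length offset, among other settings (above). S280D against WT gave nearly the same log2 fold change without a call (-0.45 ± 0.15, edgeR adjusted p = 0.843).

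Pdp1 differed between the effects of S280D and S280A over YFP, with a direct log2 fold change of 0.60 ± 0.20 (edgeR adjusted p = 0.0326, n = 2 each). Pdp2 differed in the same comparison by 0.65 ± 0.22 (edgeR adjusted p = 0.037, n = 2 each). The Pdp1 call was lost with lane as a covariate and the Pdp2 call with DESeq2, among other settings (above).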

How the results depend on the processing

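No call of the 10 genes changed sign under any alternative. Each call of the 10 genes was lost under at least 1 alternative, and the cause was not tested. Calls of single genes outside the 10 were not followed under the alternatives. The replicate numbers are only shared: deviations of same-numbered libraries correlated from -0.173 to 0.205 between pairs of groups, so the numbers do not pair the samples. With the replicate block 0 of the 9 genes were called in S280A against WT (Pdk3, edgeR adjusted p = 0.0524) and 3 genes in all in S280D against WT, and no other call of the 9 genes changed. With lane as a covariate 1 gene was called in S280D against WT, 993 in S280A against WT (118 higher, 875 lower), 1654 in S280D against YFP (1279 higher, 375 lower), 2 in S280A against YFP and 9 in WT against YFP, and of the 9 genes 0 were called in S280A against WT, 1 (Pdp2) in S280D against S280A and 0 in WT against YFP. With no filter on low counts 129 genes were called in S280D against WT and 278 in S280A against YFP, with DESeq2 39 and 86, and with only the 4 libraries compared 33 and 38. DESeq2 and the fit to 4 libraries each called 1 of the 9 genes in S280D against S280A (Pdp1). The exon length offset called 8 genes in S280A against YFP, 0 of the 9 in S280A against WT and 1 (Pdp2) in S280D against S280A. It also turned the split of all called genes to 2049 higher and 1659 lower in S280A against WT (1250 and 1976 without it), 2169 and 3162 in S280D against S280A (2641 and 2232), 1784 and 2579 in S280D against YFP (2116 and 1699), and 1401 and 1598 in WT against YFP (1513 and 924).

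Leaving out 1 library gave 0 to 13 genes called in S280D against WT, 6 to 3859 in S280A against WT, 1254 to 5223 in S280D against S280A, 917 to 4152 in S280D against YFP, 2 to 131 in S280A against YFP and 163 to 2917 in WT against YFP. The lowest of these came without S280A replicate 2 in S280A against WT (6; 7 without WT replicate 1) and in S280D against S280A (1254), without S280D replicate 1 in S280D against YFP (917) and without WT replicate 1 in WT against YFP (163). Of the 9 genes it gave 0 to 1 in S280A against WT, 0 to 2 in S280D against S280A and 0 to 1 in WT against YFP. Without S280A replicate 1, Pdp2 became called in S280A against WT (edgeR adjusted p = 0.0301). Where a group keeps 1 library, it is assumed to vary like the other groups. Depth limits Pdk4, with 14 reads in all.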

Other observations

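Level per length differed between libraries by up to 2.17-fold for Pdk1, 2.01-fold for Pdp2 and 1.96-fold for Pdk3 (highest over lowest of 8 libraries), against 1.27-fold for Dlat and 1.3-fold for Mpc2. For Pdk1 the highest library and the second lowest were both YFP libraries, with levels of 5.99 and 3.12 RPKM. The ratio of Mpc2 to Mpc1 level was 4.64 and 4.93 in S280D libraries, 6.71 and 5.02 in S280A libraries, 5.32 and 4.04 in WT libraries, and 3.89 and 4.58 in YFP libraries.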
